A study of Mus musculus with 8 samples.

Results

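The genes described here are 36 genes of fat, 15 that mark the identity and function of the fat cell and 21 that encode or control the enzymes of fatty acid and triglyceride synthesis. The list was set by gene name, and each gene was read from the probe that carried only its symbol and had the highest mean over the tumours. Such a probe existed for 35 of the 36 genes, and for 22180 genes over the whole array. Scd2, a stearoyl-CoA desaturase, was represented only by a probe that shares a second symbol, and no value is given for it. Acvr1c, a receptor for activins that is enriched in fat cells, lay among the dimmest 25% of genes, at 3.64 to 4.10 on the log2 scale, and was not tested. That left 34 genes, 14 of fat cell identity and 20 of lipid synthesis.

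In 8 primary tumours of the mammary gland, taken from transgenic mice of the FVB strain, total RNA was hybridised to Affymetrix arrays and read as log2 signals. Of these, 4 tumours have the genotype NeuNT, a transgene of the Neu (ErbB2) receptor, and 4 have NeuNT/H1074R, which adds a mutant p110α, the catalytic subunit of PI 3-kinase. The labels write the mutation H1074R and the series title H1047R, and both groups received no treatment. The labels give neither age, nor the promoter or Cre that drives either allele, nor whether each tumour came from its own mouse, so the p-values speak only of the spread among these 8 tumours.

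White fat cells form under the control of the nuclear receptor PPARγ (Pparg) and C/EBPα (Cebpa), store triglyceride in droplets coated by perilipin, and secrete adiponectin, leptin and resistin. The mammary gland lies in a pad of such cells. Fatty acids can also be made inside epithelial cells from citrate, by ATP citrate lyase, acetyl-CoA carboxylase and fatty acid synthase, under the factors SREBP-1 (Srebf1) and ChREBP (Mlxipl). The milk-making epithelium uses this route for milk fat, PI 3-kinase signalling is known to raise SREBP-1 activity, and the same enzymes work in fat cells. The question set to these genes was therefore whether the synthesis genes followed the fat cell genes from tumour to tumour, or went their own way.

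Both groups of genes have promoter letters that can be set side by side. The 4 shown are examples, each picked with a match to a motif searched, and do not stand for their lists. Of the 36 genes, 27 had a promoter in the RefSeq table (GRCm38.p6), and Aoc3, Car3, Dgat2, Fabp4, Fads1, Lgals12, Lpl, Scd1 and Scd2 did not. The 250 bases before each start were searched on both strands for 4 motifs. Capitals mark TTGCNNAA, a core of C/EBP sites, in Lep (chr6:29060101-29060220, plus strand) and Plin1 (chr7:79732777-79732976, minus strand). They mark CCAAT, the letters bound by NF-Y, or its reverse complement in Fasn (chr11:120824548-120824667, minus strand) and Thrsp (chr7:97417551-97417670, minus strand).
Lep: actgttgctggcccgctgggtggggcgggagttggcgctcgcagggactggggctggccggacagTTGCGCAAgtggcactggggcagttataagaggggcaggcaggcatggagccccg
Plin1: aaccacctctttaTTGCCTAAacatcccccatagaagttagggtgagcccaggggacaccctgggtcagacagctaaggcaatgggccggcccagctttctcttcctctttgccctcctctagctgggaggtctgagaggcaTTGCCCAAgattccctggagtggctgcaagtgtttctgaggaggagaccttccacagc
Fasn: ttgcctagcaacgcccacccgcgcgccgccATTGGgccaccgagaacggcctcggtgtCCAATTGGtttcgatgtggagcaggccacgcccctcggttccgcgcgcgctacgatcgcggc
Thrsp: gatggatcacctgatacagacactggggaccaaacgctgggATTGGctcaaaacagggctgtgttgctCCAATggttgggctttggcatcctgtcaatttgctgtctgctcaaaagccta
The run in Fasn holds 3 matches, of which 2 overlap in one block of capitals. A gene was counted if any of its listed starts had a match, while the shares of all are over single promoters, so the 2 measures differ. CCAAT was present in 11 of the 17 synthesis genes with a promoter and in 3 of the 10 identity genes with one (Adipoq, Cd36 and Pparg). Its share of all 32851 promoters was 33.8%. TTGCNNAA was present in 3 of the 10 identity genes (Lep, Plin1 and Pparg) and in 0 of the 17 synthesis genes, against 9.56% of all promoters. Adipoq, not among the 4 shown, had CCAAT and no TTGCNNAA. CACGTG, the E-box, was present in Lipe, Elovl5, Mlxipl and Slc25a1 and in 6.02% of all, and TCACNCCAC, letters of a sterol response element, only in Mlxipl among these genes and in 1.05% of all. No match of one motif overlapped a match of another in these promoters, and a match describes the letters of the window only.

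The secreted hormones of the fat cell were highest in NeuNT tumours 1 and 2. In NeuNT tumours 1 to 4 the log2 signal of Adipoq was 6.89, 6.68, 5.16 and 4.98, and in NeuNT/H1074R tumours 1 to 4 it was 4.61, 5.73, 5.42 and 4.60. Lep gave 6.07, 6.33, 4.60 and 4.03 in the NeuNT tumours and 4.53, 4.81, 4.44 and 4.18 in the NeuNT/H1074R tumours. Adipoq and Lep, the adiponectin and leptin genes, thus stood apart in the same pair of tumours, while the other NeuNT tumours lay within or next to the range of the NeuNT/H1074R tumours. Outside that pair Lep lay at 4.03 to 4.81, near 4.06, the mean below which a gene counted as dim. Adipoq in NeuNT/H1074R tumours 1 and 4 lay below the medians of their arrays, 4.86 and 4.87. Differences among such low values are less certain. Retn, which encodes resistin, gave 6.61, 6.31, 5.26 and 5.32 in the NeuNT tumours and 5.40, 5.91, 6.16 and 4.74 in the NeuNT/H1074R tumours. These are bulk tumours, in which fewer fat cells and less RNA per fat cell cannot be told apart.

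The genes of the lipid droplet and of its breakdown differed in how far they varied. Plin1, which coats the droplet, gave 6.28, 6.25, 5.38 and 5.49 in the NeuNT tumours and 5.47, 5.59, 5.59 and 4.99 in the NeuNT/H1074R tumours. Lgals12, a galectin of the droplet surface, gave 8.39, 7.95, 7.48 and 7.57 against 7.11, 7.70, 7.33 and 6.89. Both were again highest in NeuNT tumours 1 and 2, and lowest in NeuNT/H1074R tumour 4. The 2 lipases that break down stored triglyceride varied less than most genes. Lipe, hormone-sensitive lipase, ranged over 0.64 between the 8 tumours and Pnpla2, adipose triglyceride lipase, over 0.58, while the median range of all tested genes was 0.74.

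Of the genes of fatty acid uptake and carriage, Fabp4, Cd36 and Lpl were also highest in NeuNT tumour 1 or 2. A separate list of 9 uptake genes did not share this. Its mean, with each gene centred on its own mean, was -0.05 in NeuNT tumours 1 and 2 and 0.10 in NeuNT tumour 4. Fabp4, the fatty acid binding protein of fat cells, gave 9.80, 9.37, 7.83 and 8.73 in the NeuNT tumours and 7.33, 8.49, 8.29 and 7.12 in the NeuNT/H1074R tumours. Cd36, a fatty acid transporter found also on endothelium and macrophages, gave 9.31, 7.89, 6.62 and 7.93 against 7.40, 7.70, 6.60 and 6.26. Its highest value was in NeuNT tumour 1 alone, and the other tumours of both groups overlapped. Lpl, lipoprotein lipase, ranged from 6.34 to 7.86 and Aoc3, a vascular and fat cell amine oxidase, from 5.90 to 8.74, both highest in NeuNT tumour 2. Car3, a carbonic anhydrase abundant in fat and also in skeletal muscle, had the widest range of the 34 genes, 5.08, from 6.26 in NeuNT/H1074R tumour 4 to 11.34 in NeuNT tumour 2.

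The 2 transcription factors did not follow one pattern. Pparg gave 5.66, 6.16, 4.90 and 5.05 in the NeuNT tumours and 5.01, 6.05, 5.29 and 6.33 in the NeuNT/H1074R tumours. It was highest in NeuNT/H1074R tumour 4, the tumour in which Adipoq, Fabp4, Plin1, Retn and Car3 were lowest. Cebpa gave 6.90, 8.26, 6.36 and 7.38 against 7.30, 6.79, 7.38 and 5.999, with its highest value in NeuNT tumour 2 and its lowest in NeuNT/H1074R tumour 4. Pparg and Cebpa therefore lay at opposite ends of their ranges in NeuNT/H1074R tumour 4.

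**Figure D1:**
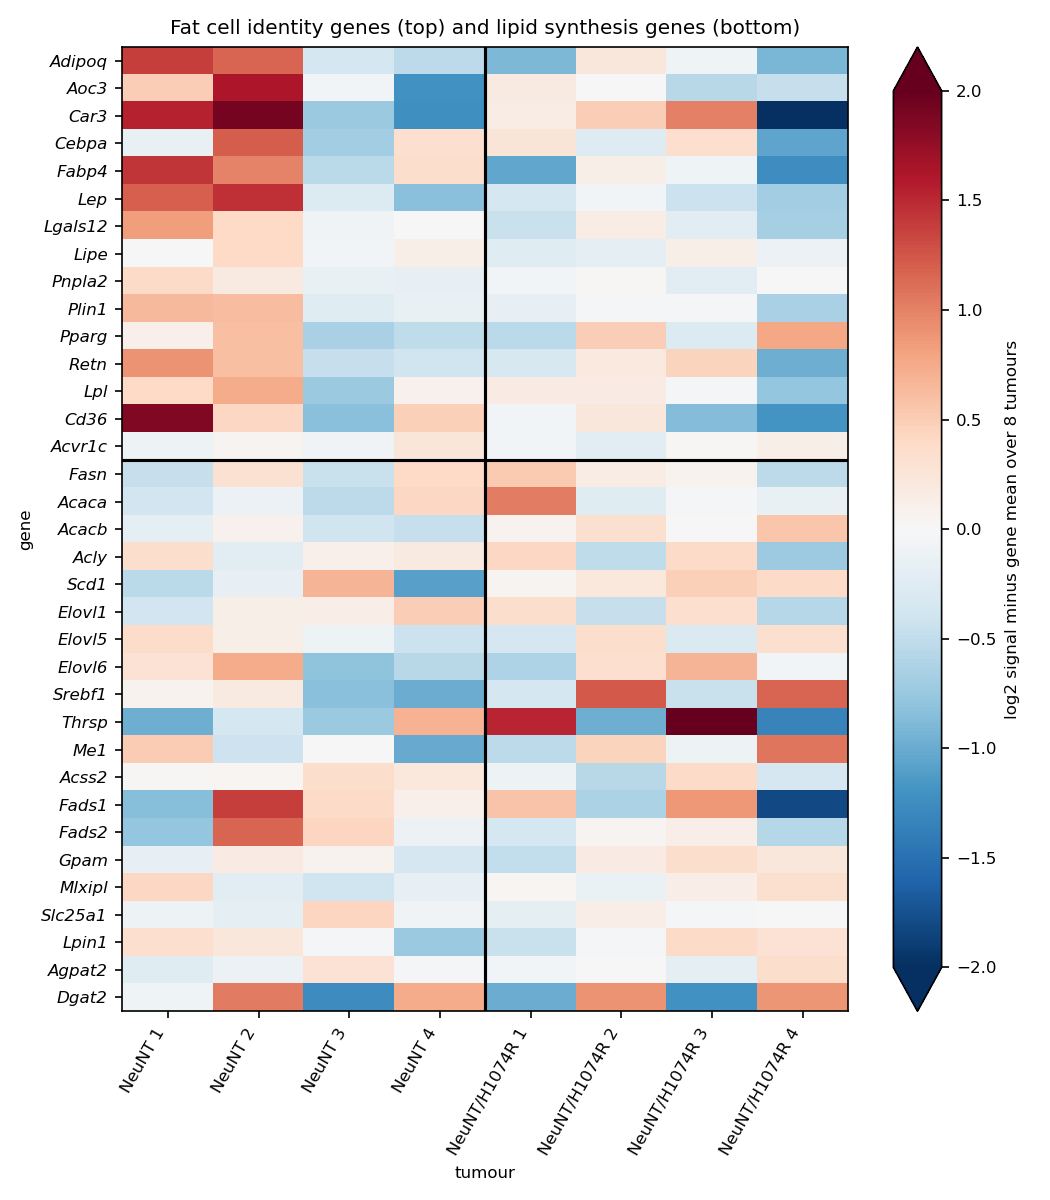
Log2 signal of each gene minus its own mean over the 8 tumours, with genes in rows and tumours in columns. The fat cell identity genes above the line are mostly red in NeuNT tumours 1 and 2, except Cebpa and Lipe in tumour 1 and the dim Acvr1c, and the synthesis genes below it share no such columns; colours stop at 2 log2 units to either side.

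The synthesis genes were spread less and in more than one pattern. The median range over the 8 tumours was 1.13 for the 20 synthesis genes, 2.07 for the 14 identity genes and 0.74 for all tested genes. Fasn, fatty acid synthase, gave 8.59, 9.37, 8.61 and 9.45 in the NeuNT tumours and 9.58, 9.22, 9.12 and 8.53 in the NeuNT/H1074R tumours. Its value in NeuNT tumour 1, where the fat cell hormones were among the highest, lay close to its lowest, in NeuNT/H1074R tumour 4. Acaca, the cytosolic acetyl-CoA carboxylase, gave 7.40, 7.67, 7.27 and 8.20 against 8.80, 7.54, 7.76 and 7.64, and NeuNT/H1074R tumour 1 held the highest value of both genes.

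The enzymes that supply acetyl-CoA and reducing power split in the same tumours. Acly, ATP citrate lyase, gave 9.77, 9.20, 9.50 and 9.58 in the NeuNT tumours and 9.83, 8.90, 9.80 and 8.69 in the NeuNT/H1074R tumours. Me1, the cytosolic malic enzyme that makes NADPH, gave 10.34, 9.42, 9.84 and 8.83 against 9.31, 10.27, 9.73 and 10.91. Within the NeuNT/H1074R group, tumours 2 and 4 were the lowest for Acly and the highest for Me1. Acss2, acetyl-CoA synthetase, ranged from 6.002 to 6.95, and Slc25a1, the mitochondrial citrate carrier, from 9.15 to 9.77.

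Thrsp, the Spot 14 protein that promotes fatty acid synthesis in fat, liver and lactating mammary gland, had the widest range of the synthesis genes. It gave 7.26, 7.89, 7.49 and 8.94 in the NeuNT tumours and 9.77, 7.26, 10.40 and 6.90 in the NeuNT/H1074R tumours. NeuNT/H1074R tumours 1 and 3 were the highest of all 8 and tumour 4 the lowest, so the NeuNT tumours lay inside the range of the other group. Tumours 1 and 3 also carried the highest skeletal muscle genes. The mean of 7 muscle markers, each centred on its own mean, was 1.67 and 1.33 in them and between -0.85 and 0.08 in the other 6 tumours, and Ckm, muscle creatine kinase, gave 7.58 and 6.71 in them and 4.82 to 5.37 elsewhere. The part of muscle RNA in the Thrsp values was not tested.

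Srebf1 and ChREBP gave another order. Srebf1 gave 9.14, 9.24, 8.23 and 8.08 in the NeuNT tumours and 8.71, 10.29, 8.62 and 10.22 in the NeuNT/H1074R tumours. NeuNT/H1074R tumours 2 and 4 were the highest of all 8, and the other NeuNT/H1074R tumours lay among the NeuNT tumours. Mlxipl ranged from 5.28 to 6.09, highest in NeuNT tumour 1. The array probe of Srebf1 was read as a whole gene, and its isoforms were not separated here.

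Among the desaturases and elongases, Scd1 was level in 1 genotype and spread in the other. Scd1, which puts the first double bond into saturated fatty acids, gave 10.79, 11.17, 12.02 and 10.24 in the NeuNT tumours and 11.40, 11.54, 11.81 and 11.72 in the NeuNT/H1074R tumours, with an SD of 0.74 (n = 4) against 0.18 (n = 4), a difference in spread that was not tested. Fads1 and Fads2, the desaturases of polyunsaturated fatty acids, were both highest in NeuNT tumour 2, at 10.44 and 11.21, while the lowest Fads1 was 7.26 in NeuNT/H1074R tumour 4 and the lowest Fads2 9.28 in NeuNT tumour 1. Elovl6, which lengthens palmitate, gave 9.12, 9.57, 8.01 and 8.26 in the NeuNT tumours and 8.21, 9.15, 9.50 and 8.76 in the NeuNT/H1074R tumours. Its highest values came in NeuNT tumours 1 and 2 and in NeuNT/H1074R tumours 2 and 3, which in each group were the tumours with the highest Adipoq. Elovl1 ranged from 7.99 to 9.06 and Elovl5 from 9.01 to 9.82.

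In the assembly of triglyceride, Dgat2, which adds the last fatty acid, varied most. It gave 6.65, 7.78, 5.49 and 7.48 in the NeuNT tumours and 5.75, 7.64, 5.54 and 7.62 in the NeuNT/H1074R tumours, so each group spanned nearly the whole range. Gpam and Agpat2, the acyltransferases that act first, ranged over 0.84 and 0.59. Lpin1, a phosphatidate phosphatase, ranged from 6.48 to 7.59.

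**Figure D2:**
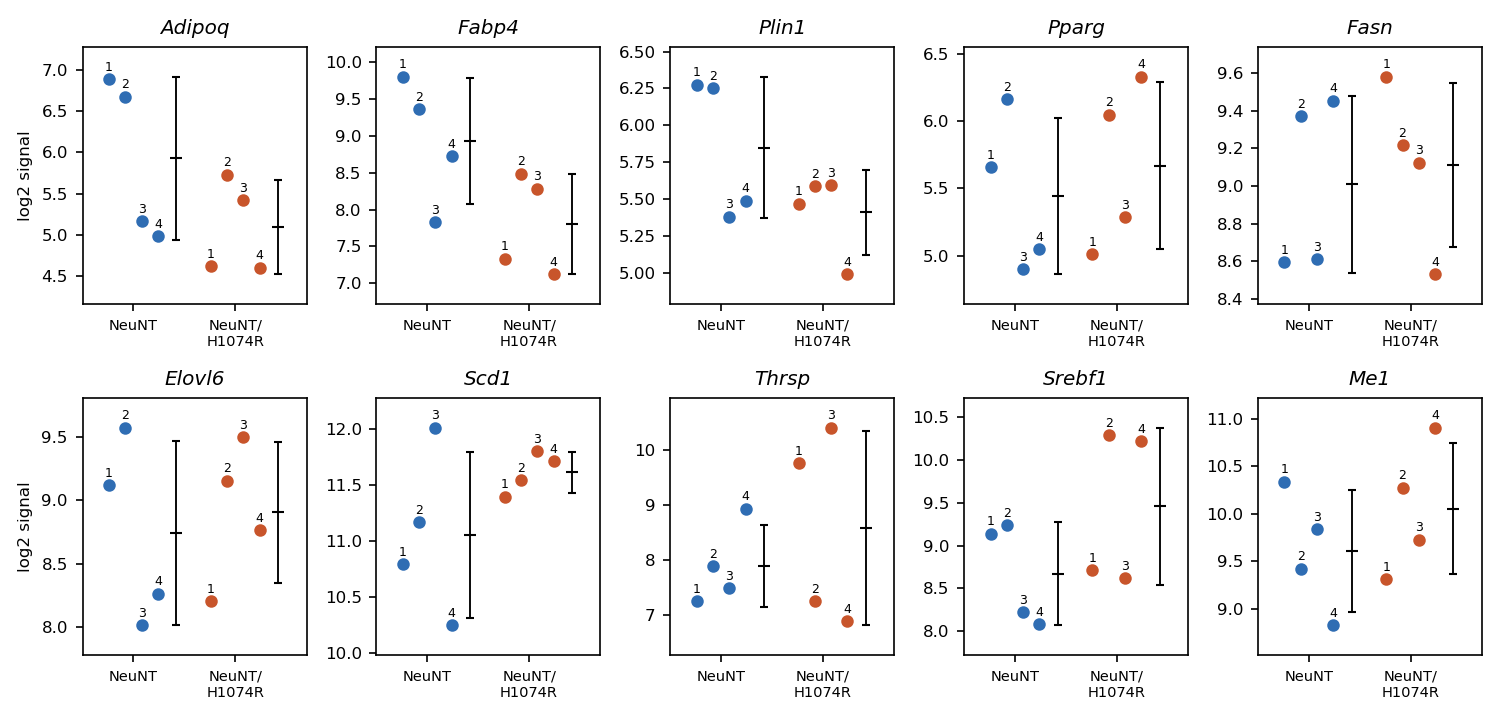
Log2 signal of 10 genes in every tumour, numbered 1 to 4 within each genotype, with the mean and SD of each group of 4 drawn beside the points. Each panel has its own scale, which does not start at 0; Adipoq, Fabp4 and Plin1 share NeuNT tumours 1 and 2 as their highest, and in Pparg, Srebf1 and Me1 NeuNT/H1074R tumours 2 and 4 stand among the highest 3.

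Set against each other over the 8 tumours, most identity genes correlated with one another, and the synthesis genes correlated about as often below 0 as above it. Among the 91 pairs of identity genes the mean Pearson correlation was 0.603, with 89 pairs above 0. Among the 190 pairs of synthesis genes it was -0.00194, with 91 above 0, and among the 280 pairs of an identity and a synthesis gene it was 0.0211, with 145 above 0. The mean over all pairs of tested genes was 0.0021. These correlations describe 8 tumours that all pairs share, and those of the identity genes leaned on NeuNT tumours 1 and 2: without both, the mean was 0.241.

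The centred means of the 2 lists show the same values per tumour. For the 14 identity genes the mean was 0.79, 0.88, -0.42 and -0.26 in the NeuNT tumours and -0.24, 0.11, -0.06 and -0.79 in the NeuNT/H1074R tumours. For the 20 synthesis genes it was -0.14, 0.19, -0.13 and -0.14 against 0.01, 0.04, 0.20 and -0.03. NeuNT tumours 1 and 2, which shared the highest identity means, held one of the lowest and one of the highest synthesis means. A list of 13 other white fat cell genes, among them Cidec, Plin4 and Pck1, gave 0.55, 0.64, -0.23 and -0.32 in the NeuNT tumours and -0.28, -0.07, 0.07 and -0.37 in the NeuNT/H1074R tumours.

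**Figure D3:**
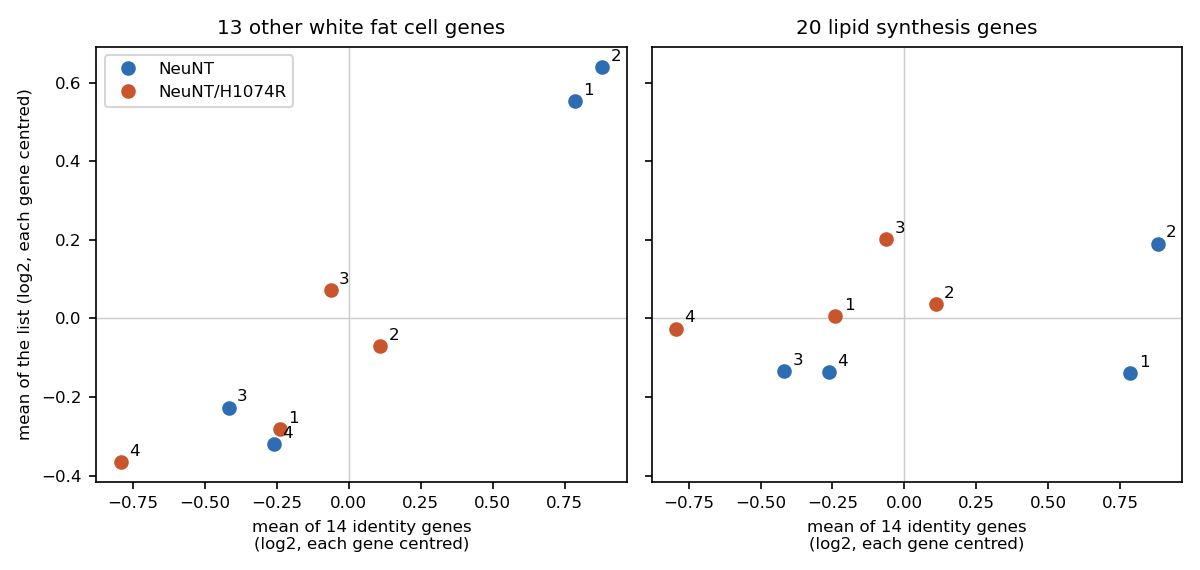
Mean centred log2 signal of 13 other white fat cell genes (left) and of the 20 synthesis genes (right) against the mean of the 14 identity genes, 1 point per tumour, numbered within its genotype. The other fat cell genes run from -0.37 to 0.64 with NeuNT tumours 1 and 2 at the top, and the synthesis means stay between -0.14 and 0.20.

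The design's own comparison was between the genotypes. No gene of the 34 passed an adjusted p of 0.05 in limma, nor did any of the 16635 tested genes (0%), and the smallest adjusted p of the 34 was 0.978. At an unadjusted p under 0.05 the background was 1.71% of all genes with a negative and 2.11% with a positive difference. Of the 14 identity genes, 13 had a negative difference (NeuNT/H1074R minus NeuNT) and 2 of them an unadjusted p under 0.05, with a median of -0.43. Of the 20 synthesis genes, 13 had a positive difference and 1 an unadjusted p under 0.05, with a median of 0.10. The median of all tested genes was -0.00, with 49.5% of them positive and 50.5% negative.

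The 2 identity genes were Fabp4 and Lgals12. Fabp4 averaged 8.93 ± 0.86 (SD, n = 4) in the NeuNT tumours and 7.81 ± 0.68 (SD, n = 4) in the NeuNT/H1074R tumours, a difference of -1.12 ± 0.47 (SE) with an adjusted p of 0.978 in limma. Lgals12 differed by -0.59 ± 0.25 (SE), Cd36 by -0.95 ± 0.55, Adipoq by -0.84 ± 0.49 and Lep by -0.77 ± 0.49. In each of these 5 genes the groups overlapped. Without NeuNT tumour 1 the difference was -0.49 for Cd36, -0.52 for Adipoq and -0.41 for Lgals12, and without NeuNT tumour 2 it was -0.41 for Lep. The count of identity genes with a negative difference at an unadjusted p under 0.05 was 0 without NeuNT tumour 1 or 2 or NeuNT/H1074R tumour 1 or 4, 1 without NeuNT/H1074R tumour 3, 3 without NeuNT tumour 4 and 4 without NeuNT tumour 3. The share of all genes in these fits ran from 0.86%, without NeuNT/H1074R tumour 4, to 2.45%, without NeuNT tumour 1. It was 2.19% without NeuNT tumour 4 and 1.76% without NeuNT tumour 3. Pparg was the identity gene with a positive difference, 0.23 ± 0.37 (SE). Without NeuNT tumour 2 the median of the identity genes was -0.21. Without NeuNT tumours 1 and 2 it was 0.06, with 9 of the 14 differences positive and 5 negative, so their shared direction rested on these tumours.

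The synthesis gene with an unadjusted p under 0.05 was Acacb, the mitochondrial acetyl-CoA carboxylase whose malonyl-CoA restrains fatty acid oxidation. It gave 4.94, 5.21, 4.73 and 4.67 in the NeuNT tumours and 5.20, 5.45, 5.13 and 5.67 in the NeuNT/H1074R tumours, and the groups overlapped. The difference was 0.48 ± 0.17 (SE), adjusted p 0.978 in limma, at signals not far above the limit of 4.06 set for dim genes. Srebf1 differed by 0.79 ± 0.47 (SE), Thrsp by 0.69 ± 0.81, Scd1 by 0.56 ± 0.33, Me1 by 0.45 ± 0.40 and Fasn by 0.10 ± 0.28. Without 1 tumour these ran from 0.51 to 1.07 for Srebf1, 0.078 to 1.25 for Thrsp, 0.29 to 0.88 for Scd1 and 0.16 to 0.70 for Me1, and the median of the synthesis genes from 0.021 to 0.17. Acacb had an unadjusted p of 0.05 or more without NeuNT tumour 3 or 4 or NeuNT/H1074R tumour 2 or 4. The 95% interval of Fasn ran from -0.54 to 0.75 and that of Srebf1 from -0.28 to 1.86, and both include 0. In 0 of the 34 genes were the groups free of overlap, against 2.69% of all tested genes.

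**Figure D4:**
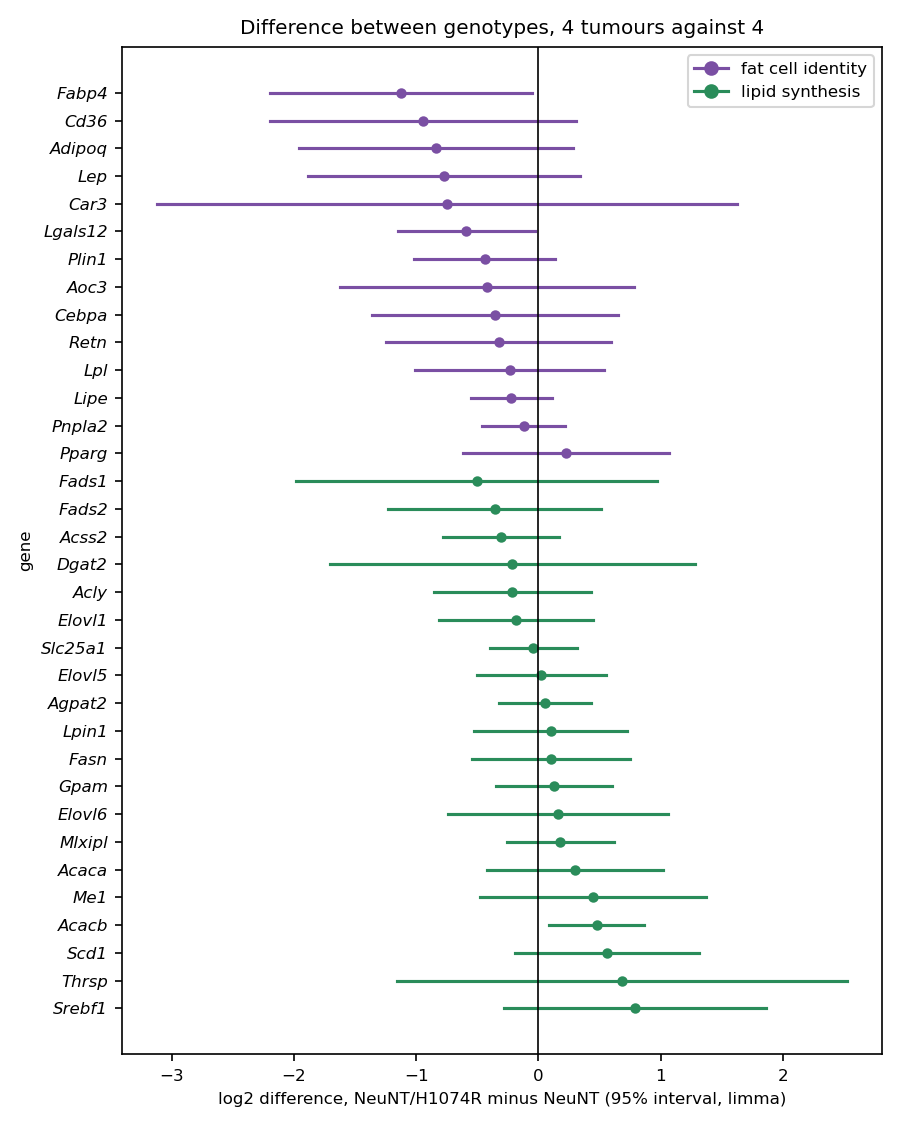
Difference between the genotypes in log2 signal for the 34 tested genes, with 95% intervals from limma and 4 tumours a group. The identity genes lie left of 0 except Pparg, the synthesis genes lie on both sides from -0.50 (Fads1) to 0.79 (Srebf1), and the intervals of Fabp4, Lgals12 and Acacb are the ones that do not reach 0.

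Markers of other tissues also had differences mostly of one sign between the genotypes, none of which passed an adjusted p of 0.05 in limma. The mean of 8 fibroblast markers was 0.46, 0.90, 0.32 and -0.51 in the NeuNT tumours and -0.18, 0.28, -0.51 and -0.75 in the NeuNT/H1074R tumours, and all 8 markers had a negative difference, with a median of -0.44. Of 11 milk and alveolar genes, 10 had a negative difference, with a median of -1.30. All 7 muscle markers had a positive difference, with a median of 1.23. In 4 of the 7 the groups did not overlap, against 1.59% of all tested genes in that direction. The mean of the 7 markers was 1.67 and 1.33 in NeuNT/H1074R tumours 1 and 3. In NeuNT/H1074R tumours 2 and 4 it was -0.35 and -0.59, inside the NeuNT range of -0.85 to 0.08. Of the luminal markers, Epcam lay at 10.18 to 10.99, Krt8 at 9.78 to 10.89 and Krt18 at 10.36 to 11.36, while Krt19 ran from 5.37 in NeuNT tumour 3 to 11.52. The part of these tissues in the genotype differences of the fat genes was not tested.

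To ask what followed the fat cells within the genotypes, each gene was fitted on the log2 signal of Adipoq with genotype as a term. No gene passed an adjusted p of 0.05 in limma (0%). At an unadjusted p under 0.05 the background was 3.54% of all genes with a positive and 3.5% with a negative slope. All 13 identity genes other than Adipoq had a positive slope and 8 had an unadjusted p under 0.05, with a median of 0.46 log2 units per log2 unit of Adipoq. Of the 20 synthesis genes 11 had a positive slope, and 1, Elovl6, had an unadjusted p under 0.05, a share close to the background. That count was 4 without NeuNT/H1074R tumour 4 (Elovl5, Elovl6, Lpin1 and Srebf1), where the share of all genes was 5.71%. It was 3 without NeuNT/H1074R tumour 3, where that share was 5.2%. It was 2 without NeuNT tumour 1 or 3 or NeuNT/H1074R tumour 2, with shares of 3.53%, 2.78% and 2.25%. Over the 8 tumours the median slope of the synthesis genes was 0.10, and that of all tested genes was 0.00, with 50.7% of them positive.

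The steepest identity slope was that of Car3, 1.72 ± 0.48 (SE). Lep had a slope of 0.91 ± 0.17 and Retn of 0.74 ± 0.14, each with an adjusted p of 0.570 in limma, the smallest of the 33 genes. Fabp4 had a slope of 0.85 ± 0.17, Plin1 of 0.45 ± 0.10 and Lgals12 of 0.43 ± 0.10. The factors and lipases were flatter for their errors: Pparg had a slope of 0.41 ± 0.23, Cebpa of 0.34 ± 0.31, Pnpla2 of 0.19 ± 0.09 and Lipe of 0.08 ± 0.11. Since the identity genes were picked as fat cell genes, their shared direction describes the tumours and is not independent evidence. Without NeuNT tumours 1 and 2, 12 of the 13 slopes were positive, and Fabp4, Lgals12 and Retn had an unadjusted p under 0.05. Of all genes, 0.655% had a positive slope at that level in that fit.

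Of the synthesis enzymes, Fasn, Acly and Scd1 had slopes near 0. Fasn had a slope on Adipoq of -0.03 ± 0.21 (SE), with a 95% interval of -0.52 to 0.47, Acly of -0.02 ± 0.21 and Scd1 of -0.02 ± 0.25. These intervals leave room for a slope as large as that of Plin1, 0.45. Elovl6 had 0.70 ± 0.16, adjusted p 0.626 in limma, and Srebf1 had 0.51 ± 0.30. Elovl6 kept an unadjusted p under 0.05 when any 1 tumour was left out, but not without NeuNT tumours 1 and 2 together. At the other end lay Thrsp with -0.32 ± 0.60 and Acaca with -0.26 ± 0.22.

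Over all genes outside the list, the smallest adjusted p on Adipoq belonged to Cidec, which enlarges lipid droplets, and to Mmp13, a collagenase. Cidec had a slope of 1.32 ± 0.12 (SE) and Mmp13 of -2.48 ± 0.25, each with an adjusted p of 0.0984 in limma. The next 8 named by the same order were Npr3, Emb, Slc7a11, Trarg1, Pck1, Plin4, Ogn and H2-M9, of which Slc7a11, the cystine transporter, had a negative slope of -0.99 ± 0.13. Trarg1, Pck1 and Plin4 are fat cell genes, and Ogn is a proteoglycan of connective tissue. Of the 13 other white fat cell genes, 12 had a positive slope and 6 an unadjusted p under 0.05, with a median of 0.30.

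Other stromal markers went with Adipoq as well. Of the 8 fibroblast markers, 7 had a positive slope and 4 (Dpt, Pi16, Lum and Dcn) an unadjusted p under 0.05, with a median of 0.47, close to that of the identity genes. Dpt, dermatopontin, had the steepest, 1.21 ± 0.25 (SE), while Col1a1, the main fibrillar collagen, had -0.23 ± 0.28. All 7 endothelial markers had a positive slope, with a median of 0.22, while 2 of the 7 macrophage markers did. Of 8 brown fat genes, 4 had a positive slope, with a median over the 8 of -0.04. Cox7a1, a subunit of cytochrome oxidase in brown fat and muscle, had 0.55 ± 0.24 at an unadjusted p of 0.0484 in limma, and Cox8b had 0.36 ± 0.22. Otop1, Dio2, Cidea and Prdm16 had negative slopes, that of Otop1 being -0.16 ± 0.07 at an unadjusted p of 0.0491 in limma. Ucp1, which defines brown fat, stayed between 4.01 and 4.44 and Otop1 between 4.18 and 4.62, both near the limit for dim genes. Fabp5, the fatty acid binding protein of epithelial cells and macrophages, had a negative slope of -1.24 ± 0.30. The part of these cells in the slopes was not tested.

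The same fit on Csn1s1, a casein that marks milk-making epithelium, gave another order of genes. Csn1s1 gave 11.09, 12.20, 10.9995 and 11.83 in the NeuNT tumours and 11.28, 8.22, 8.99 and 6.11 in the NeuNT/H1074R tumours. Of the 10 other milk and alveolar genes tested, 8 had a positive slope on Csn1s1, 2 of them at an unadjusted p under 0.05 in limma. Csn3, another casein, had a negative slope of -0.14 ± 0.05 (SE) at that level, so Csn1s1 did not stand for every milk gene. No gene passed an adjusted p of 0.05 in limma (0%), and at an unadjusted p under 0.05 the background was 3.91% of all genes with a positive and 3.39% with a negative slope, while 49.7% of all slopes were positive. Of the 20 synthesis genes, 6 had a positive slope at that level (Acaca, Acly, Elovl1, Fads1, Fasn and Thrsp) and 1, Me1, a negative one. Of the 14 identity genes, 1, Cebpa, had a positive slope at that level, 0.33 ± 0.12 (SE). The count was 0 without NeuNT/H1074R tumour 4 and 2 without NeuNT/H1074R tumour 1, where the shares of all genes were 2.04% and 1.87%.

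Within the synthesis genes, Fasn had a slope on Csn1s1 of 0.23 ± 0.07 (SE), adjusted p 0.615 in limma, Acaca of 0.25 ± 0.08, Thrsp of 0.64 ± 0.21 and Fads1 of 0.53 ± 0.16. Me1 had -0.35 ± 0.09 and Srebf1 -0.29 ± 0.15. The synthesis genes thus lay on both sides, with a median of -0.06. The count of 6 rested on NeuNT/H1074R tumour 4, which had the lowest Csn1s1. Without it, 1 gene (Acaca) had a positive slope at an unadjusted p under 0.05, against 2.04% of all genes. Without NeuNT/H1074R tumour 1, 3 genes did (Fads1, Fasn and Thrsp), against 1.87%. The count was also 1 (Fasn), against 0.878% of all genes, without NeuNT/H1074R tumours 1 and 3, which were high in muscle genes. All 7 muscle genes had a positive slope on Csn1s1, 5 at an unadjusted p under 0.05. Btn1a1, butyrophilin of the milk fat globule, was also fitted in place of Csn1s1. On it, 0 synthesis and 9 identity genes had a positive slope at that level, against 4.67% of all genes. Btn1a1 itself had a slope on Adipoq of 1.15 ± 0.44 (SE) at an unadjusted p of 0.0335 in limma (adjusted 0.696). The parts of milk-making epithelium and fat cells in the Btn1a1 fit, and of muscle in the Csn1s1 fit, were not tested.

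**Figure D5:**
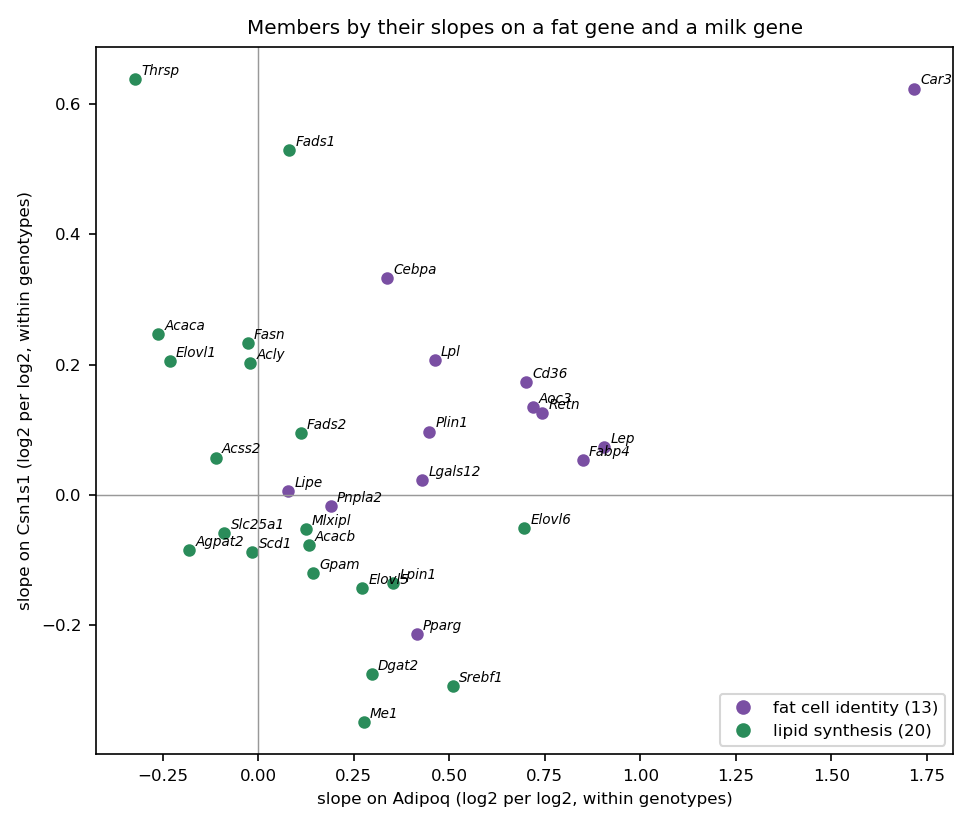
Slope of each gene on Csn1s1 against its slope on Adipoq, both in log2 units per log2 unit within genotypes, for 13 identity and 20 synthesis genes. The identity genes lie to the right of 0, from 0.08 (Lipe) to 1.72 (Car3), and the synthesis genes lie on both sides of 0 on both axes, from -0.32 (Thrsp) to 0.70 (Elovl6) across and from -0.35 (Me1) to 0.64 (Thrsp) upward; errors are not drawn.

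Ratios of 2 genes within an enzyme family gave a further contrast. Elovl6 and Elovl5 belong to 1 family but are not forms of a single step, so their ratio does not compare isoenzymes. The log2 ratio of Acacb to Acaca was -2.46, -2.45, -2.54 and -3.53 in the NeuNT tumours and -3.60, -2.10, -2.63 and -1.97 in the NeuNT/H1074R tumours. Only its change between tumours can be read, since the probes differ. Its Pearson r with Adipoq over the 8 tumours was 0.344 (exact permutation test, two-sided p = 0.407) and Spearman's rho was 0.214 (exact permutation p = 0.619). The log2 ratio of Elovl6 to Elovl5 was -0.70, 0.01, -1.32 and -0.74 against -0.90, -0.65, 0.34 and -0.997. It had an r of 0.434 (exact permutation p = 0.279, adjusted over the 2 ratios 0.407) and a rho of 0.643 (exact permutation p = 0.0962, adjusted 0.192). Without NeuNT tumours 1 and 2, the farthest from the median of Adipoq, r was 0.373 and 0.456. With pairings kept within genotypes, r was 0.497 (exact permutation p = 0.243) and 0.592 (exact permutation p = 0.194). Neither correlation with Adipoq passed 0.05 over the 8 tumours. Without 1 tumour, r ran from 0.117 (without NeuNT/H1074R tumour 1) to 0.671 (without NeuNT/H1074R tumour 4) for Acacb to Acaca. In the latter case rho was 0.821 (exact permutation p = 0.0341, adjusted 0.0683). For Elovl6 to Elovl5, r ran from 0.243 (without NeuNT tumour 2) to 0.665 (without NeuNT/H1074R tumour 3). Against Plin1 in place of Adipoq, the rho of Elovl6 to Elovl5 was 0.810 (exact permutation p = 0.0218, adjusted 0.0436), while its r was 0.477 (exact permutation p = 0.212).

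Around the listed enzymes, the wider pathway showed no common direction. Of 12 tested regulators of fatty acid synthesis, 7 had a negative and 5 a positive difference between the genotypes, with a median of -0.06. Among them Mlx, the partner of ChREBP, gave 7.95, 7.97, 7.87 and 7.93 in the NeuNT tumours and 7.66, 7.62, 7.57 and 7.69 in the NeuNT/H1074R tumours, without overlap. Nr1h3, the liver X receptor that turns on Srebf1, gave 6.66, 6.55, 6.20 and 6.48 against 6.68, 6.77, 6.80 and 6.83, also without overlap. Groups without overlap were seen in 1.1% (lower) and 1.59% (higher) of all genes, and the differences were -0.30 ± 0.10 (SE) for Mlx and 0.30 ± 0.13 for Nr1h3. Of 17 other enzymes of lipid synthesis, 8 had a positive slope on Adipoq, with a median of -0.01.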

How the data were processed

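The authors deposited 1 table of log2 values for 8 arrays and 41345 probes, used as deposited. Affymetrix Expression Console and Transcriptome Analysis Console were used, per the submitters' processing notes. Their versions, the background correction, the normalization and the array's build were not given in the sources used here. Array medians lay between 4.81 and 4.87, arrays correlated at 0.89 to 0.98, and precision is limited by how few arrays there are.

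Probes with 1 symbol in the platform annotation (23521) were named and those with several (1814) left out. A gene took its probe with the highest mean. Of the 36 genes, 33 had 1 such probe and 2 (Car3 and Lpl) had several, which differed between the genotypes in the same direction. Genes in the lowest 25% of means, under 4.06, were left out, which left 16635. Differences and slopes were fitted on all of these with limma 3.58.1 in R 4.3.3 (lmFit, eBayes with trend), two-sided, with Benjamini-Hochberg adjustment at 0.05. The fits were tested on simulated data. Fits without pairs of tumours and the fit on Srebf1 were added after the values were seen. Ratios within enzyme families were tested by exact permutation over all pairings. Every listed gene is named, with up to 3 genes of smallest p on Adipoq from each other list and the 10 other genes of smallest p, leaving out predicted names. Some lists, such as the endothelial and macrophage markers, are given by their counts only. Genes of other lists outside that rule, such as Ckm, Epcam, Krt8, Col1a1, Dcn, Ucp1, Mlx and Nr1h3, are defining markers or were chosen after their values were seen. The genes and lists were chosen with earlier results of these data known.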

Additional observations from a re-analysis of the deposited data

How the results depend on the processing

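The fits were repeated with quantile normalization, with arrays centred on their medians, without the filter on dim genes, with the lower 50% of genes left out, with the mean of all probes of a gene, without the intensity trend, with array weights, and without each tumour in turn. The slopes were also fitted with no genotype term and with Plin1 or Btn1a1 in place of Adipoq or Csn1s1. No paired analysis was possible because the tumour numbers of the labels are not shared between the genotypes. The ratio of Scd1 to Scd2 was not run, since Scd2 had no probe of its own. In the genotype fit no gene passed an adjusted p of 0.05 in any of these fits. In the Adipoq fit, 2 genes passed with array weights and 1 with no genotype term, and 0 to 2 passed without 1 tumour, the 2 without NeuNT/H1074R tumour 4; none was among the 36 genes. With array weights the Csn1s1 fit called 3300 genes and 14 of the 36, with weights from 0.481 to 6.61 and an estimate that did not converge, so these calls are not relied on.

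Single values changed sign in 10 of 34 genes for the genotype difference, in 12 of 33 for the Adipoq slope and in 17 of 34 for the Csn1s1 slope. None of these values had passed the threshold, and the cause was not tested. With array weights the genotype difference was 0.0019 for Slc25a1 and 0.13 for Dgat2, the Adipoq slope was 0.096 for Scd1, -0.21 for Fads1 and 8.73e-05 for Slc25a1, and the Csn1s1 slope was -0.044 for Adipoq, -0.010 for Fabp4 and -0.023 for Lipe. Quantile normalization gave Scd1 an Adipoq slope of 0.016, and centring gave it 0.0082. With no genotype term the Adipoq slope was -0.051 for Acacb, 0.050 for Acly and 0.013 for Acss2, and the Csn1s1 slope was 0.014 for Pnpla2. On Plin1 the slope was 0.31 for Fasn, 0.29 for Acly, 0.45 for Thrsp and -0.013 for Me1. On Btn1a1 it was 0.090 for Pnpla2, 0.17 for Pparg, 0.066 for Acacb, 0.042 for Elovl5, 0.30 for Elovl6, 0.14 for Srebf1, -0.058 for Acss2, 0.042 for Mlxipl, 0.047 for Lpin1 and 0.24 for Dgat2.

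Without 1 tumour the genotype difference ran from -0.054 to 0.16 for Agpat2, -0.90 to 0.048 for Aoc3, -1.28 to 0.18 for Car3, -0.67 to 0.15 for Dgat2, -0.12 to 0.15 for Elovl5, -0.080 to 0.44 for Elovl6, -0.88 to 0.013 for Fads1, -0.051 to 0.30 for Fasn, -0.13 to 0.27 for Lpin1 and -0.11 to 0.096 for Slc25a1. The Adipoq slope ran from -0.15 to 0.074 for Acly, -0.067 to 0.71 for Dgat2, -0.25 to 0.64 for Fads1, -0.17 to 0.61 for Fads2, -0.16 to 0.16 for Fasn, -0.056 to 0.20 for Mlxipl, -0.39 to 0.29 for Scd1, -0.17 to 0.021 for Slc25a1 and -0.65 to 0.016 for Thrsp. The Csn1s1 slope ran from -0.27 to 0.31 for Adipoq, -0.041 to 1.34 for Car3, -0.20 to 0.31 for Elovl6, -0.25 to 0.45 for Fabp4, -0.20 to 0.030 for Gpam, -0.15 to 0.15 for Lgals12, -0.011 to 0.10 for Lipe and -0.15 to 0.43 for Retn. The mean correlation among the identity genes ran from 0.464, without NeuNT tumour 2, to 0.643.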

Other observations

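Because Pparg and Srebf1 were both high in NeuNT/H1074R tumours 2 and 4, a further fit with Srebf1 in place of Adipoq was run after these values were seen. In limma 79 genes of 16634 passed an adjusted p of 0.05 (0.475%), 55 with a positive slope (0.331%), but the count ran from 0, without NeuNT/H1074R tumour 1, 2 or 4, to 119, without NeuNT tumour 2. It was 11 without NeuNT/H1074R tumour 3 and 21, 34 and 23 without NeuNT tumours 1, 3 and 4. Of the 33 other genes of fat, 0 passed over the 8 tumours, and 1, Thrsp, passed without NeuNT tumour 2 or 3. Pparg came nearest, with a slope of 0.72 ± 0.12 (SE) and an adjusted p of 0.0593, then Elovl5 with 0.43 ± 0.09 (0.0741), Thrsp with -1.52 ± 0.31 (0.0761) and Elovl1 with -0.50 ± 0.11 (0.0922). Since Srebf1 was picked because Pparg was seen to be high in the same tumours, the slope of Pparg is not independent evidence. The adjusted p-values do not allow for that choice. Fasn had a slope of -0.22 ± 0.21 (adjusted p 0.641 in limma) and Scd1, like Fasn a known target of SREBP-1, of 0.00 ± 0.26.

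Genes of fatty acid oxidation were nearly level. Of 14 tested, 10 had a negative difference between the genotypes and 11 a positive slope on Adipoq, with a median slope of 0.05. Ppara, the receptor that turns these genes on, had the smallest unadjusted p of them, with a slope of 0.31 ± 0.10 (SE). Among 9 genes of fatty acid uptake, 6 had a positive slope, with a median of 0.01. Olah, the thioesterase that ends medium-chain milk fatty acids, was left out as dim, and gave 6.14 in NeuNT tumour 1 and 2.70 to 3.27 in the other 7 tumours. Cidea, a droplet protein of brown fat and of lactating gland, gave 7.94, 5.47, 6.01 and 8.31 in the NeuNT tumours and 6.68, 6.35, 6.69 and 6.44 in the NeuNT/H1074R tumours.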
